A study of Mus musculus with 48 samples.

Results

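The growth hormone (GH) and insulin-like growth factor (IGF) axis was examined through 10 genes: Ghr, Igf1, Igfals, Socs2, Cish, Igfbp1, Igfbp2, Igfbp3, Hsd3b5 and Elovl3. They were chosen by gene symbol, with results of these same libraries already known, from the 15541 genes that the tables of the 6 tissues hold together. All 10 genes were listed in the liver. In subcutaneous white adipose tissue (WAT) and gastrocnemius muscle 6 of them were listed, and in each of the 3 intestinal segments 3 were listed (Ghr, Socs2 and Cish). Because the choice followed known differences between the surgeries, the values of these 10 genes are given as a description, with standard errors and without p-values. Where none was called, only the count under an unadjusted p-value of 0.05 is added.

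The mice were male C57Bl6 animals with diet-induced obesity, raised on a high-fat diet. One arm had Roux-en-Y gastric bypass (RYGB), in which a small stomach pouch is joined to the jejunum, and the other had sham surgery. Both arms received a liquid elemental diet for 9 days after surgery and were killed in the morning after an overnight fast, and no genetic change or drug was given to either. The 48 mRNA libraries comprised 4 per surgery for liver, WAT and muscle, 5 per surgery for the ileum, and 3 RYGB against 4 sham for duodenum and jejunum. The intestinal samples were villi scraped from the mucosa. The labels do not say which libraries of different tissues came from 1 mouse, nor whether sham mice were matched for body weight or food intake.

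Levels are given in CPM, which scales each gene's count to a fixed library total, and a level in 1 tissue is set beside another only loosely, since each tissue has its own table. CPM is not adjusted for gene length, so levels were not compared between genes. A log2 fold change is the RYGB mean minus the sham mean of log2(CPM + 1), which understates changes of genes near 1 CPM. A gene was called when its adjusted p-value in limma was under 0.05 and its fold change was at least 1.5. Over all tested genes in the liver the median log2 fold change was 0.13, and in WAT it was 0.11, so small increases there lie close to the centre of all genes.

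The markers of each labelled tissue were abundant in it. The summed CPM of 7 hepatocyte markers was 86310 to 120506 in RYGB livers and 85973 to 101234 in sham livers, and no hepatocyte marker was called. The summed CPM of 6 enterocyte markers was at least 19056 in every intestinal library. Other cell type markers differed between the groups. In WAT, 6 adipocyte markers summed to 6437 to 12128 CPM after RYGB and 13598 to 20141 CPM after sham, while 5 B cell markers summed to 687 to 1756 CPM after RYGB and 5.4 to 13.6 CPM after sham. The lymph node vessel gene Glycam1, chosen after its values were seen, had 42 to 136 CPM after RYGB and 0 to 0.2 CPM after sham in WAT. The 3 listed keratinocyte markers summed there to 2.2 to 2.6 CPM after RYGB and 3.6 to 143.8 CPM after sham. In the liver, 6 macrophage markers summed to 696 to 1689 CPM after RYGB and 350.2 to 602 CPM after sham. Of these, Lyz2 (log2 fold change 1.81) and Cd68 (1.03) were called higher. Adgre1, Csf1r, C1qa and Clec4f were not called, and Clec4f was at -0.12. Among the sham livers, replicate 3 stood apart in several genes described below, and in WAT RYGB replicate 4 had the lowest adipocyte sum. In bulk tissue, fewer cells of a type and less RNA per cell cannot be told apart.

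Growth hormone from the pituitary binds its receptor, encoded by Ghr, on hepatocytes and other cells, and the receptor signals through the kinase JAK2 and the transcription factor STAT5B. In the liver this pathway drives Igf1, which encodes the circulating growth factor, and Igfals, which encodes the acid-labile subunit that holds IGF-1 and IGFBP3 in a large serum complex. Cish and Socs2 are STAT5 targets whose products feed back on the receptor. Igfbp1 and Igfbp2 encode binding proteins that are known to rise in fasting and low insulin. Hsd3b5, a steroid dehydrogenase, and Elovl3, a fatty acid elongase, are male-biased liver genes that depend on the pulsatile GH secretion of males.

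Promoter sequences of 8 of the 10 genes were at hand from RefSeq (build GRCm38.p6), in 12 windows of 300 bases each. Short stretches are printed because they hold letters known from this pathway: a match to CAAAACAA, the insulin response element bound by FOXO1, in Igfbp1, and matches to TTCNNNGAA, the paired half-sites of STAT5, in Cish and Igfals. Capitals mark the matches, and the Igfbp1 stretch is the 250 bases before its start site at chr11:7197537-7197786, plus strand. The Cish stretch is the first 20 bases from its RefSeq start site at chr9:107296659-107296678, plus strand, and the Igfals stretch is 30 bases at chr17:24878162-24878191, plus strand. Start sites here are those of RefSeq. GENCODE M21 places the start of Cish upstream at chr9:107296026 and that of Igfbp1 at chr11:7197782.
Igfbp1: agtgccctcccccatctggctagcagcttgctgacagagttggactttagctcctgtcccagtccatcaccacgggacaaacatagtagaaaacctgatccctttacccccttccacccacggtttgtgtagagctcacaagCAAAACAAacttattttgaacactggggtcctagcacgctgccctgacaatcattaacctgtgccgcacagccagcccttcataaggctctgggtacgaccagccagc
Cish: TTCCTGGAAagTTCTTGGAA
Igfals: tctgccaggtgTTCCTAGAAgaggccctgg

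Both strands were searched. TTCNNNGAA reads the same on both strands and was present in 8.29% of all 32817 promoter windows, and CAAAACAA was present in 2.51%. The forkhead core GTAAACA was also searched. It was present in 3.65% of all windows and, among these genes, in 1 Igfals window. The 2 Cish matches lay side by side, 2 of the 3 Igfals windows held a STAT5 match, and the windows of Ghr, Igf1, Igfbp2, Igfbp3 and Hsd3b5 held none of the 3 motifs. The Hsd3b5 window and 1 of the 2 Igfbp2 windows did not end inside a GENCODE M21 transcript of their gene. These matches are a description of letters and were not tested for binding.

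In the liver, 6 of the 10 genes were called. Ghr, Hsd3b5 and Elovl3 were lower after RYGB, and Socs2, Igfbp1 and Igfbp2 were higher. Over all 11807 genes tested in the liver, 5.79% were called higher and 1.29% were called lower. The choice of genes used this comparison, so nothing is read from the counts. Igf1, Igfals, Cish and Igfbp3 were not called.

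**Figure D1:**
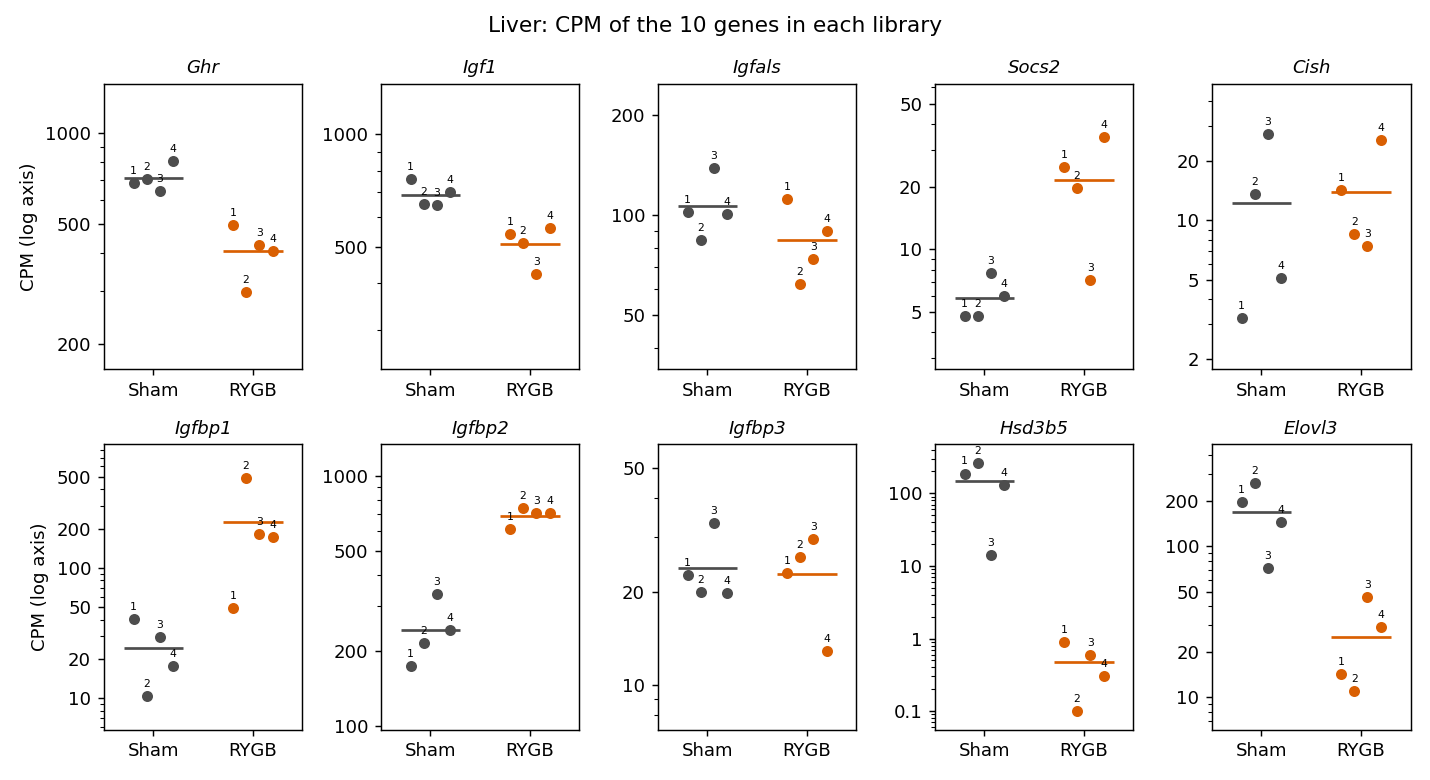
CPM of the 10 genes in each liver library, on a log axis for each gene. Points are libraries with their replicate numbers, and horizontal lines are group means (n = 4 each). Ghr, Igf1, Hsd3b5 and Elovl3 lay lower in every RYGB library than in any sham library, and Igfbp1 and Igfbp2 lay higher.

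Ghr (ENSMUSG00000055737, chr15:3317760-3583492, minus strand) measured 497.1, 297.7, 424.2 and 407.2 CPM in the RYGB livers and 684.8, 703.5, 641.3 and 810.3 CPM in the sham livers. The groups did not overlap, and RYGB replicate 2 was the lowest. Mean levels were 407 ± 82.4 CPM and 710 ± 71.8 CPM (SD, n = 4 each), a log2 fold change of -0.82 (SE 0.16). The fold change was -0.86 (SE 0.17) with the sequencing lane in the model, and Ghr was called under every alternative tried.

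Igf1 (ENSMUSG00000020053, chr10:87858265-87937042, plus strand) measured 539.9, 513.3, 424.2 and 561.9 CPM after RYGB and 760.2, 650.8, 647.4 and 700.5 CPM after sham. Every RYGB library was below every sham library. The log2 fold change was -0.44 (SE 0.13), a fold of 1.36. Igf1 missed both the required fold and the adjusted p threshold and was not called. Igfals, the acid-labile subunit (ENSMUSG00000046070), measured 112, 62.1, 73.9 and 90 CPM after RYGB and 102.5, 84.3, 138.4 and 101.2 CPM after sham. The groups overlapped, and the log2 fold change was -0.34 (SE 0.19). Igfbp3, the binding protein of the same serum complex, ranged from 12.9 to 29.6 CPM after RYGB and from 19.8 to 33.2 CPM after sham, with a log2 fold change of -0.09 (SE 0.24). In the liver Igfbp3 is made mainly by cells other than hepatocytes. Igf1 overlaps an annotated antisense gene, Igf1os, and whether counting used the strand is not given in the sources used here.

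Of the feedback genes of the receptor, Socs2 was called and Cish was not, and the difference between them was not tested. Socs2 (ENSMUSG00000020027, chr10:95385362-95417180, minus strand) measured 24.9, 19.8, 7.1 and 34.7 CPM in the RYGB livers and 4.8, 4.8, 7.7 and 6 CPM in the sham livers. RYGB replicate 3 lay within the sham range and the other RYGB libraries lay above it. The log2 fold change was 1.56 (SE 0.37), opposite in sign to that of Ghr and Igf1 in the same libraries. This call was the least firm of the 6. It was lost under median-ratio scaling, where the fold change was 1.43, and without RYGB replicate 2 (1.54), RYGB replicate 4 (1.28), sham replicate 1 (1.49), sham replicate 2 (1.49) or sham replicate 4 (1.58). Cish (ENSMUSG00000032578), whose RefSeq start holds both STAT5 matches printed above, measured 14.3, 8.5, 7.4 and 25.5 CPM after RYGB and 3.2, 13.6, 27.3 and 5.1 CPM after sham. Its libraries spread over the same range in both groups, and the log2 fold change was 0.40 (SE 0.55), and 0.90 (SE 0.46) without sham replicate 3, which had the highest value.

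Of the 50-base windows of the longest Socs2 transcript, 7.23% occur in transcripts of other genes, among them Gm9847 and Gm8000, and for Cish 0.194% do. For Ghr, Igf1, Igfals, Igfbp1, Igfbp2, Igfbp3 and Elovl3 no window was shared.

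Igfbp1 and Igfbp2 encode binding proteins that limit free IGF-1. Igfbp1 (ENSMUSG00000020429, chr11:7197782-7202546, plus strand) measured 49.3, 492.2, 182.6 and 171.9 CPM after RYGB and 40.2, 10.3, 29.3 and 17.5 CPM after sham. The groups did not overlap, but RYGB replicate 1 lay close to the highest sham library and RYGB replicate 2 was far above the rest. The log2 fold change was 2.89 (SE 0.59) and 2.95 (SE 0.37) with lane in the model. The call was lost without RYGB replicate 3 (2.85) or without sham replicate 4 (2.79), at nearly the same fold change. Igfbp3 lies 3539 bases beyond the end of Igfbp1 on the other strand, and its level, given above, differed little between the groups.

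Igfbp2 (ENSMUSG00000039323, chr1:72824503-72852474, plus strand) was the steadiest of the higher genes. It measured 614, 741.6, 707.3 and 709.8 CPM after RYGB and 173.7, 214.1, 337.6 and 241.8 CPM after sham. The lowest RYGB library was far above the highest sham library, which was replicate 3. The log2 fold change was 1.55 (SE 0.18), a fold of 2.94, and Igfbp2 was called under every alternative tried, with fold changes from 1.41 to 1.73.

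The male-biased genes fell furthest on the log2 scale. Hsd3b5 (ENSMUSG00000038092, chr3:98618634-98630252, minus strand) measured 0.9, 0.1, 0.6 and 0.3 CPM in the RYGB livers and 187.6, 262.6, 14.2 and 130.3 CPM in the sham livers. All 4 RYGB libraries were under 1 CPM, near the rounding step of 0.1 CPM, and sham replicate 3 lay between the groups. The log2 fold change was -6.11 (SE 0.71), and it was -7.02 (SE 0.25) without sham replicate 3. Elovl3 (ENSMUSG00000038754, chr19:46131897-46135694, plus strand) measured 14.3, 11, 46.4 and 29.2 CPM after RYGB and 197.5, 263.2, 71.4 and 145.2 CPM after sham. The groups did not overlap, sham replicate 3 was again the lowest of its group, and the log2 fold change was -2.76 (SE 0.46). Without that library it was -3.12 (SE 0.42).

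Hsd3b5 belongs to a family of close copies, and 21.2% of its 50-base windows occur in other transcripts, mostly of Gm10681 and Hsd3b4. Its relatives Hsd3b2 and Hsd3b3, chosen after their values were seen, were also lower in the RYGB livers. Hsd3b3 ranged from 82.9 to 124.5 CPM after RYGB and from 163.5 to 248.7 CPM after sham (log2 fold change -1.08, SE 0.16, adjusted p = 0.0046 in limma). Hsd3b2 had a log2 fold change of -1.12 (SE 0.22, adjusted p = 0.0164 in limma). Of the Hsd3b2 windows 25.5% occur in other transcripts, most often of Hsd3b3 and Hsd3b6, and their part in its value was not tested. Hsd3b7 ranged from 438.9 to 598.4 CPM after RYGB and from 532.9 to 682.8 CPM after sham, overlapped between the groups and was not called (log2 fold change -0.22, SE 0.14). Hsd3b5 also overlaps Zfp697 and Elovl3 overlaps Pitx3, each on the opposite strand.

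The genes also varied within a group. The Pearson r of the 8 liver libraries' deviations from their group means, on log2(CPM + 1), ranged over the 45 pairs of genes from -0.89 for Igfbp2 with Hsd3b5 to 0.74 for Igf1 with Socs2. It was -0.83 for Ghr with Igfbp1 and 0.67 for Hsd3b5 with Elovl3. These are descriptions over few libraries, and the genes of 1 library share its depth and its animal. Among the sham livers, replicate 3 was lowest in Hsd3b5 and highest in Igfbp2.

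A wider set of 74 genes in 5 lists places the liver values in their pathway, and all 5 lists were written with earlier results of these data known, so their counts are a description and are not read as a result about the lists. In the liver 14 of the 55 tested genes were called, 7 higher and 7 lower, beside 5.79% and 1.29% of all genes. Of the 13 male-biased GH-dependent genes 12 were tested, of which 7 fell and none rose, beside 1.29% of all genes called lower. Their median log2 fold change was -1.30, against 0.13 over all genes. Cyp4a12a, a male-specific fatty acid hydroxylase, had 1.7 to 32.2 CPM after RYGB and 64.3 to 157.4 CPM after sham (log2 fold change -4.04, adjusted p = 0.00646 in limma). Mup21, a major urinary protein gene, had 5.9 to 24.9 CPM and 127.2 to 315.8 CPM (log2 fold change -4.04, adjusted p = 0.000417 in limma). Cyp4a12b and Ugt2b38 fell too, by 3.27 and 1.72 on the log2 scale. Outside the naming rule, the other called genes were Cyp2d9 (-1.70), Slco1a1 (-1.46) and Cyp7b1 (-1.14), whereas Ugt2b1 (0.05) and Gstp1 (0.21) were not called. Several of these share sequence with close copies: 48.9% of the windows of Cyp4a12a occur in Cyp4a12b, and 37.4% of those of Ugt2b38 and 29% of those of Cyp2d9 occur in relatives.

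Of the 16 female-biased genes 6 were tested, of which 3 rose, none fell and 3 were not called, beside 5.79% of all genes called higher. Their median log2 fold change was 1.21. Cyp17a1, a steroid hydroxylase, had 39.1 to 100.3 CPM after RYGB and 9 to 20.7 CPM after sham (log2 fold change 2.20, adjusted p = 0.00396 in limma). Fmo2 and Trim24 rose by 1.34 and 1.07 on the log2 scale. Tox (-0.16) and Cyp2b9 (0.81, SE 1.27), named outside the rule, were not called. Cyp2a4 was not called either: its RYGB livers had 2.7 to 14.4 CPM, and of the sham livers replicate 3 had 24.1 CPM and the others 0.1 to 0.3 CPM. In sham replicate 3 the male-biased Serpina1e was also lowest (134.9 CPM, against 999.5 to 5865.8 CPM in the other sham livers) and the female-biased Cyp2b9 highest (231.3 CPM, against 1.2 to 27.4 CPM), both chosen after their values were seen. Yet Cyp2d9 in that library, at 786.9 CPM, lay within the range of its group. Without sham replicate 3, 17 genes of the lists were called instead of 14.

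**Figure D2:**
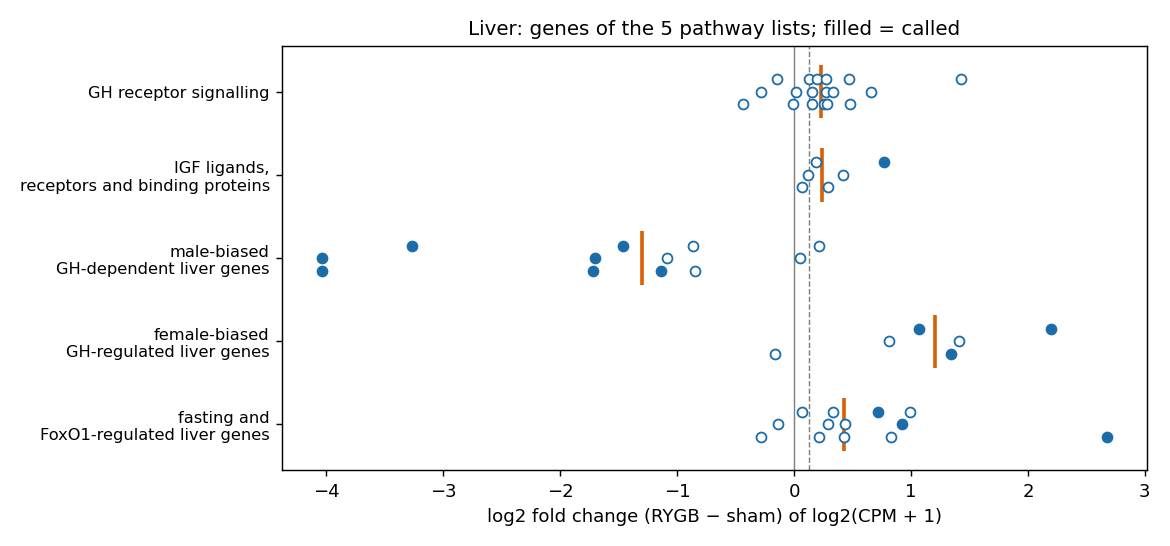
Log2 fold change (RYGB minus sham) in the liver for each tested gene of the 5 lists, with filled points for called genes. Short orange lines are list medians, the solid grey line is 0, and the dashed line is the median of all genes, 0.13. Most male-biased genes lie left of the dashed line and most female-biased genes right of it.

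None of the 18 tested genes of the GH receptor signalling list was called in the liver by limma, and 7 had an unadjusted p-value under 0.05, beside 26.9% of all genes. The median log2 fold change was 0.23. Jak2 had a log2 fold change of 0.27 and Stat5b of 0.15, both uncalled. The highest values in this list were those of Irs2, an insulin receptor substrate (1.43, adjusted p = 0.0522 in limma), and the phosphatase gene Ptpn6 (0.66, adjusted p = 0.0814 in limma). Blood-derived cells express Ptpn6. It also had 27.1 to 34.7 CPM in the sham duodenum, where the 3 listed macrophage markers summed to 2.1 to 12.2 CPM. The macrophage sum given above was higher in every RYGB liver than in any sham liver, with 2 of the 6 markers called. Its part in the value was not tested. Of the 6 tested genes of the IGF list beside those above, Igfbp7 rose (log2 fold change 0.77, adjusted p = 0.0289 in limma), and the IGF binding protein protease gene Htra1 had an uncalled 0.42. Igfbp7 is made by endothelial and stromal cells, and 3 of 5 fibroblast markers were also called higher in the liver, with sums of 369 to 724 CPM after RYGB and 254.7 to 345.8 CPM after sham. Their part in the value was not tested either, and the call of Igfbp7 was lost without sham replicate 1, sham replicate 2, RYGB replicate 2 or RYGB replicate 3, at fold changes from 0.62 to 0.90 over all alternatives.

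Of 13 fasting and FoxO1-regulated genes, which share regulation with Igfbp1, 3 rose and none fell in the liver. Over all genes there, 5.79% were called higher and 1.29% lower. The median log2 fold change of the list was 0.43, against 0.13 over all genes. Fgf21, a liver hormone of fasting that is known to blunt GH action, had 4.8 to 36.9 CPM after RYGB and 0.6 to 1.2 CPM after sham (log2 fold change 2.68, adjusted p = 0.00939 in limma). Cpt1a, which admits fatty acids to mitochondria, rose by 0.92 on the log2 scale, and the coactivator gene Ppargc1a by 0.72. The Ppargc1a call was lost under median-ratio scaling and without sham replicate 1, 2 or 4, over which its fold change stayed between 0.58 and 0.80. Pck1, the gluconeogenic enzyme, had a log2 fold change of 0.99 and was not called, and G6pc, chosen after its value was seen, had -0.28.

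Beyond the liver, Ghr was listed in every tissue. In the sham mice its level was 1096.6 to 1579.4 CPM in WAT, 641.3 to 810.3 CPM in the liver and 222.1 to 283.4 CPM in muscle, and these ranges did not overlap. The sham villi had much less, 12.4 to 16.3 CPM in the duodenum, 12.1 to 20.6 CPM in the jejunum and 7.7 to 17 CPM in the ileum, and those 3 ranges overlapped. Igf1 in sham mice was highest in the liver, followed by WAT (204.8 to 349.6 CPM) and muscle (25.7 to 43 CPM), without overlap. Igfals followed the same order, with 84.3 to 138.4 CPM in the liver, 11.5 to 56.9 CPM in WAT and 3.3 to 5.4 CPM in muscle. Igfbp1, Igfbp2, Hsd3b5 and Elovl3 were listed in the liver table alone.

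**Figure D3:**
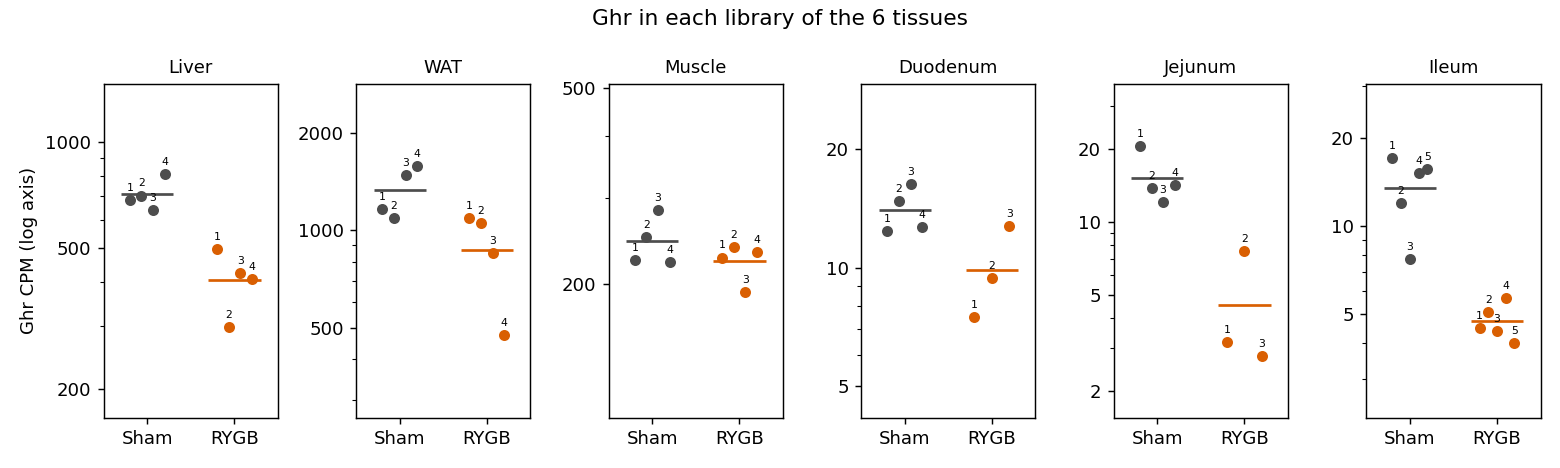
Ghr in each library of the 6 tissues, in CPM on a log axis of its own for each tissue, with replicate numbers and group means as lines. RYGB libraries lay below all sham libraries in the liver, WAT, jejunum and ileum, and the groups overlapped in muscle and duodenum.

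In the jejunum Ghr measured 3.2, 7.6 and 2.8 CPM after RYGB and 20.6, 13.8, 12.1 and 14.1 CPM after sham. The groups did not overlap, and the log2 fold change was -1.62 (SE 0.31). In the ileum it measured 4.5, 5.1, 4.4, 5.7 and 4 CPM after RYGB and 17, 12, 7.7, 15.2 and 15.6 CPM after sham. Again no library overlapped, and the log2 fold change was -1.30 (SE 0.20). In the duodenum it measured 7.5, 9.4 and 12.8 CPM after RYGB and 12.4, 14.8, 16.3 and 12.7 CPM after sham, with a log2 fold change of -0.49 (SE 0.19), and RYGB replicate 3 lay within the sham range. Ghr was called lower in the jejunum and the ileum and not in the duodenum, and the difference between segments was not tested.

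Of all genes, 5.13% were called lower and 4.62% higher in the jejunum, and 4.42% lower and 1.64% higher in the ileum. In the duodenum 0.00922% were called lower, which is 1 gene of 10850, and 0% higher. Without sham replicate 4 the duodenal count over all genes was 757, and with a replicate block 268. The 1 listed pancreatic acinar marker, Cela1, varied widely among the duodenal libraries. It had 1978.8 and 4817.2 CPM in sham replicates 1 and 2, 517.5 CPM in RYGB replicate 3 and 5.9 to 11.7 CPM in the others. All listed genes summed to 970679 and 925122 CPM in sham replicates 1 and 2 and to 973815.5 CPM in RYGB replicate 3. In the other duodenal libraries they summed to at least 996265 CPM. The part of pancreatic RNA in the duodenal values was not tested. With lane in the model the jejunal fold change of Ghr was -1.99 (SE 0.26). RYGB replicate 2, the RYGB library with the highest value, was alone in its lane, so that fold change rests on the other jejunal libraries. In the ileum no lane held both surgeries, so the effects of lane and of surgery cannot be told apart there. Fibroblast markers, which would mark stroma carried along with the villi, were near 0 in these tissues: at most 10 CPM for the 1 listed marker in the duodenum, at most 4.3 CPM in the jejunum, and none listed in the ileum.

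Socs2 and Cish did not follow Ghr in the villi. Socs2 was 10.7 to 18 CPM after RYGB and 15.9 to 17.5 CPM after sham in the jejunum, a log2 fold change of -0.15 (SE 0.22). In the ileum Socs2 spread from 11.3 to 46 CPM after RYGB and from 16.9 to 22.3 CPM after sham (log2 fold change 0.19, SE 0.33). Cish had 3.3, 20.8, 26.3, 25.4 and 6.8 CPM in the RYGB ilea and 9.1 to 13.7 CPM in the sham ilea, so that RYGB libraries lay on both sides of the sham range. In the duodenum Cish had 13.5 to 21.9 CPM after RYGB and 7.6 to 15 CPM after sham (log2 fold change 0.68, SE 0.28), and the groups overlapped. None of these was called.

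**Figure D4:**
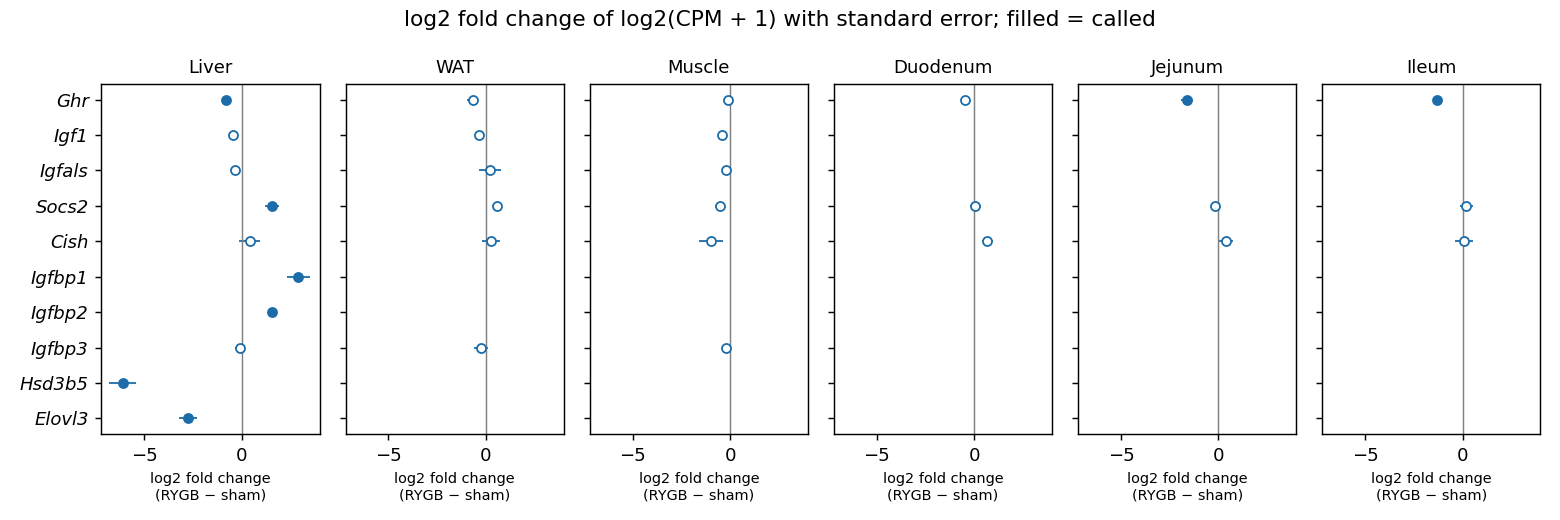
Log2 fold change (RYGB minus sham) of log2(CPM + 1) with its standard error for each of the 10 genes in each tissue where it was listed. Filled points were called. Values right of 0 are higher after RYGB, and Ghr lies left of 0 in all 6 tissues.

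In WAT none of the 6 listed genes was called by limma, and 1 had an unadjusted p-value under 0.05, as did 6685 of all 13379 genes. Over all genes there, 14.9% were called higher and 9.23% lower. Ghr measured 1095.5, 1056.3, 854.3 and 475.3 CPM after RYGB and 1164.4, 1096.6, 1489 and 1579.4 CPM after sham. Every RYGB library was below every sham library, although RYGB replicate 1 was nearly level with sham replicate 2, and the log2 fold change was -0.67 (SE 0.28). Without RYGB replicate 4, the lowest library, it was -0.40 (SE 0.18). Adipocytes express Ghr, and the sum of their markers was lower in the same libraries, although of the 6 markers only 1, Lep, was called lower. The part of adipocytes in the value was not tested.

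Igf1 in WAT measured 236.3, 272.5, 247.6 and 131.3 CPM after RYGB and 349.6, 305.1, 204.8 and 241.6 CPM after sham. The groups overlapped, and the log2 fold change of -0.33 (SE 0.25) was -0.10 (SE 0.18) without RYGB replicate 4 and -0.51 (SE 0.15) with lane in the model. Socs2 in WAT measured 19.5, 23.6, 28.3 and 47.4 CPM after RYGB and 16.7, 14.1, 23.7 and 20 CPM after sham, a log2 fold change of 0.59 (SE 0.26). It was called with lane in the model (0.88, SE 0.16) and without RYGB replicate 1 (0.76), and without RYGB replicate 4 it fell to 0.35 (SE 0.19). RYGB replicate 1 and sham replicate 3 were each alone in a lane, so neither informed the lane fit. Cish, Igfals and Igfbp3 overlapped between the groups, with log2 fold changes of 0.27, 0.22 and -0.25. Igfals without RYGB replicate 4 had a log2 fold change of 0.67, and with lane in the model -0.33.

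Of the GH receptor signalling genes in WAT, 6 of 16 rose and 1 fell, beside 14.9% and 9.23% of all genes. Their median log2 fold change was 0.46, against 0.11 over all genes. The highest was Ptpn6, with 169.7 to 401.5 CPM after RYGB and 33 to 60.7 CPM after sham (log2 fold change 2.45, adjusted p = 0.00058 in limma). Socs1 and Socs3, inhibitors of cytokine receptors, rose by 1.30 and 1.17, and Ptpn1, a phosphatase that acts on JAK2, by 0.75. Leukocytes express Ptpn6, Socs1 and Socs3. All 5 B cell markers and Glycam1 were called higher in the same libraries, with the values given above. Of the 5 listed macrophage markers there, 0 were called higher and 2 lower (Adgre1 at -1.19 and Cd68 at -1.09 on the log2 scale). The part of these cell types in the changes was not tested. Without RYGB replicate 4, the library with the highest B cell sum, 10 of the 45 tested genes of the 5 lists were called instead of 15, and Ptpn1 was not among them. The Socs3 call was lost without any 1 sham library or without RYGB replicate 2 or 3, at fold changes of at least 0.78. Of the IGF list, Stc1, which encodes a secreted inhibitor of an IGF binding protein protease, rose by 1.27, and Igf2r, the scavenging receptor of IGF-2, fell by 0.76. The liver-defined lists had few tested members in WAT. The male-biased Serpina1e rose by 2.37, the female-biased Tox rose by 2.58 while Cux2 and Fmo2 fell by 1.14 and 1.10, and of the fasting list Angptl4 and Fgfr1 fell by 1.37 and 0.91. Tox is also a lymphocyte gene. The Angptl4 call held in only 7 of 16 alternatives and was lost without any 1 library except sham replicate 1.

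In muscle none of the 6 listed genes and none of the 38 tested genes of the lists was called by limma. Over all genes, 0% were called in either direction, and 1746 of 11966 had an unadjusted p-value under 0.05, as had 1 of the 6 listed genes and 8 of the 38. The count called over all genes was 210 without RYGB replicate 4, 57 without sham replicate 3 and 184 with a replicate block. Igf1, which acts locally in muscle, measured 26.7, 29.5, 21 and 27.6 CPM after RYGB and 35.8, 43, 35.3 and 25.7 CPM after sham. Sham replicate 4 lay within the RYGB range, and the log2 fold change was -0.39 (SE 0.16). Ghr had a log2 fold change of -0.13 (SE 0.10). Socs2 and Cish had log2 fold changes of -0.54 (SE 0.25) and -0.97 (SE 0.63), of the opposite sign to those in the liver, and overlapped between the groups. The liver value of Cish was itself uncalled, at 0.40 (SE 0.55), and the difference between the tissues was not tested. The 5 skeletal muscle markers summed to 98634 to 130520 CPM after RYGB and 135043 to 165850 CPM after sham, without any of them being called. They did not move together: the log2 fold change was -0.57 for Myh4, -0.27 for Tnnt3, -0.12 for Ckm, -0.03 for Acta1 and 1.73 for Mb. The part of these markers in the values above was not tested. Sham replicate 3 stood apart in 6 adipocyte markers, with a sum of 948.7 CPM against 134.4 to 199.8 CPM in the other sham muscles, and had the highest sham value of Cish (46.1 CPM), Ghr (283.4 CPM) and Igfals (5.4 CPM). Without it Cish was at -0.63 (SE 0.63), Socs2 at -0.67 (SE 0.25), Ghr at -0.06 (SE 0.10) and Igfals at -0.10 (SE 0.14). With lane in the model Cish was at -0.26 (SE 0.87) and Ghr at -0.03 (SE 0.16). Only 1 of the 3 muscle lanes held both surgeries, so these fold changes rest on the libraries of that lane.

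In the jejunum, 7 of 37 tested genes of the lists were called, 3 higher and 4 lower, beside 4.62% and 5.13% of all genes. The cytokine receptor inhibitors Socs1 and Socs3 rose by 1.75 and 0.97 on the log2 scale. Of the 10 tested fasting genes 3 fell and 1 rose, with a median log2 fold change of -0.61 against -0.04 over all genes. Pdk4, which restrains glucose oxidation, had 1.4 to 6 CPM after RYGB and 50.6 to 126.4 CPM after sham (log2 fold change -4.52, adjusted p = 0.000414 in limma), and Pck1 had 2.3 to 10 CPM and 82.8 to 251.5 CPM (log2 fold change -4.48, adjusted p = 0.000862 in limma). G6pc, of glucose release, fell by 2.21, while the amino acid enzyme gene Tat rose by 2.88 and the female-biased Cyp3a44 fell by 1.82. Calls of G6pc, Tat, Socs1 and Cyp3a44 were lost in several alternatives. With lane in the model 5 genes of the lists were called in the jejunum.

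In the ileum, Pck1 fell by 2.13 on the log2 scale, whereas Cpt1a rose by 1.11, and no other of the 38 tested genes of the lists was called. Over all genes there, 4.42% were called lower and 1.64% higher. The Pck1 call there was lost with a replicate block. In the duodenum none of the 37 tested genes was called by limma, and 5 had an unadjusted p-value under 0.05, beside 18.8% of all genes. Of the 3 listed genes of the axis there, none was called by limma and 2 had an unadjusted p-value under 0.05.

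Among the 8771 genes listed in all tables, those whose mean level over the 12 tissue and surgery groups was most like that of Ghr were Nicn1 (Pearson r = 0.992), Mettl21a (0.989), Tmem184c (0.988), Kank1 (0.988) and Nr2f2 (0.987). Igf1 was listed in 3 tissues, so its likeness covers 6 groups. The closest genes were Zfyve21 (0.999), Gstt1 (0.998), Txndc15 (0.998), Shpk (0.998) and Cyp4v3 (0.997). Groups of 1 tissue share its makeup, so these values mostly describe the order of tissues.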

How the data were processed

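The authors deposited 1 table of CPM values for each tissue, rounded to 0.1, with 1 column for each library of a stranded mRNA kit. HTSeq and GRCm38 are named in the submitters' processing notes. The aligner, the annotation and the strand setting are not given in the sources used here. CPM was identified from the values, since the columns sum to 925122 to 998777 with repeated lines counted once. For the liver, 12 incomplete lines were left out. Every value column matched 1 sample (0 unmatched). Depth is unknown, so no counting interval was computed, and p-values measure only the spread between libraries.

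Surgeries were compared in each tissue by limma 3.58.1 (R 4.3.3, empirical Bayes with a trend) on log2(CPM + 1), keeping genes that averaged 1 CPM or more. Benjamini-Hochberg adjustment ran over all genes of the tissue. A called gene had an adjusted p under 0.05 and a fold of at least 1.5. The members and lists were chosen with earlier results of these data known. 1 gene is left out of the lists and is not reported here. Named list genes are the called ones, at most 4 by size of change for each list and tissue, and in the liver also the 2 at the top of each list. Ensembl IDs were matched to GENCODE M21 in Python 3.11.15 with pandas 2.3.3. Alternatives were another pseudocount (0.1), other filters, median-ratio scaling, no minimum fold, no trend, lane (from the labels), a replicate block, and leaving out each library. A lane that held 1 surgery adds nothing to the fold change of the lane fit. The fit was tested on simulated data with independent libraries and added changes larger than that of Ghr in any tissue. That test does not show how smaller changes are recovered.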

Additional observations from a re-analysis of the deposited data

Results flagged for a closer look

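Of 125 groups of 4 or 5 libraries tested for a library far from the others on log2(CPM + 1), over the 10 genes and the called genes of the lists, 4 had one. About 1 in 20 is flagged by chance. Igfals in WAT was 11 CPM in RYGB replicate 4, and Fgfr1 in WAT was 103.8 CPM in the same library, which also had the lowest adipocyte sum. Fmo2 in WAT was 64.4 CPM in sham replicate 1. In the ileum, sham replicate 5 was high in Cpt1a (104.4 CPM). The groups of 3 libraries were not tested.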

How the results depend on the processing

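The 10 genes gave 31 values over the tissues and 456 values under the alternatives, of which 434 kept their direction and 445 kept both direction and call or, when uncalled and turned in sign, moved by less than 1 SD. The direction held under all alternatives for 19 of the 31, which include all 8 called values. The number of the 10 genes called was 0 in WAT and became 1 (Socs2) with lane as a covariate, and 0 to 1 over the fits that left out 1 library. In the ileum it was 1 and became 0 with a mean of at least 10 CPM, where Ghr was no longer tested. Genes of the lists called in the jejunum numbered 7, became 11 with a replicate block, and were 3 to 7 over the fits that left out 1 library (3 without RYGB replicate 3, and 4 without sham replicate 1, 2 or 3). In the duodenum their number was 0, became 3 with a replicate block and was 0 to 4 without 1 library (4 without sham replicate 4). The cause was not tested. Same-numbered libraries of a tissue correlated in their deviations from the group means from -0.281 to 0.389, in no tissue were all above 0.1, and no tissue had every library closest to its own number (6 of 8 in the liver, the most), so the numbers were not taken as pairs. With the replicate block the counts of called axis genes did not change in any tissue, and those of the lists came to 16 (liver), 13 (WAT), 0 (muscle) and 3 (ileum, where Pck1 was no longer called). Of the 38 calls of list genes over the tissues, 24 held under every alternative. Median-ratio scaling moved the median of all genes in the liver from 0.13 to -0.01. Rounding to 0.1 CPM limits Hsd3b5 after RYGB.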

Other observations

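Lepr, which encodes the leptin receptor, a relative of the GH receptor that also signals through JAK2, was looked at after its values were seen. In the liver it measured 18, 46.6, 49.2 and 36.6 CPM after RYGB and 1.8, 6.1, 22 and 3.2 CPM after sham (log2 fold change 2.45, SE 0.55, adjusted p = 0.0245 in limma). Sham replicate 3, the library with little Hsd3b5, was again the one nearest to the RYGB libraries. In WAT every RYGB library was above every sham library, with 27.8 to 93.3 CPM and 4.9 to 9.4 CPM (log2 fold change 2.57, SE 0.37, adjusted p = 0.00225 in limma). Cell type markers also differed between the WAT groups, as given above, and their part in this value was not tested. Prlr, the prolactin receptor gene, had a log2 fold change of 0.30 (SE 0.21) in the liver and was not called.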
